A study of Homo sapiens with 11 samples.

Results

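Chemokines, interleukins and ligands of the TNF superfamily are the short-range messages that cells use to call in immune cells and to speak to their neighbours. They were followed here through long-term culture of human cardiomyocytes. The genes were taken by symbol: numbered CCL and CXCL chemokines and CX3CL1, numbered interleukins with at most a single letter after the number, TNF, LTB, numbered TNFSF ligands, LIF and the colony-stimulating factors CSF1 to CSF3. Of the 19990 genes in the count table, 36 have such a symbol. The rule itself uses no expression value, though it was set with earlier results of these data known. The symbol rule also takes in a pair of receptor chains, IL4R and IL6R, which are described as receptors. TNF, LTB, IL1B, IL10, CXCL9, CXCL10 and CXCL11 have no row in the table used here. Each row of that table holds at least 35 counts in all and a count in at least 3 libraries.

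WTC11, the line used, is a widely shared line of human induced pluripotent stem cells, taken here at passage 63. Its cells were turned into cardiomyocytes with the WNT activator CHIR99021 followed by the WNT inhibitor IWP2, and then kept in B27 medium with insulin. Wells were collected at Day 30 (4 wells), Day 60 (3 wells) and Day 113 (4 wells), and poly(A) RNA of each well gave 1 library of 24071375 to 34546715 counts. All groups share the line, its passage and the medium, and differ in the day of collection, so that age in culture and collection cannot be told apart. The labels describe wells and not separate differentiations, so the p-values measure only the spread between wells. Levels are given as CPM, counts scaled by TMM to a common library size, and a gene is called where the adjusted p of edgeR's quasi-likelihood test over all 19990 genes is under 0.05. A value after ± is the standard error of a log2 fold change, or the SD of a mean. In bulk RNA, fewer cells of a type and less RNA per cell cannot be told apart.

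Chemokines bind G protein-coupled receptors and set up gradients along which cells move: CXCL1, CXCL5 and CXCL8 draw neutrophils through CXCR2, CCL2 draws monocytes, and CXCL12 holds and guides cells through CXCR4. Interleukins act through receptor chains that in many families signal by JAK kinases and STAT factors, while the IL-1 family signals through NF-kappaB. TNF superfamily ligands are trimers that engage TNF receptors to drive NF-kappaB or cell death. In the heart, stromal and endothelial cells make much of the CXCL12, CCL2 and IL-33, and the IL-6 family (IL-6, IL-11, LIF) acts on cardiomyocytes and fibroblasts through the shared chain gp130.

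The neutrophil chemokine genes lie close together on chromosome 4, and 4 of them, CXCL1, CXCL3, CXCL5 and CXCL6, share the promoter letters GGGAATTTCC. These letters lie at -79 to -70 from the start site in CXCL1 and CXCL3, at -91 to -82 in CXCL5 and at -90 to -81 in CXCL6. The stretches below run 5′ to 3′ from 200 to 61 bases before the RefSeq start site, on GRCh38.p14. They are shown because CXCL5, CXCL6 and CXCL8 were at their lowest in the Day 60 wells, and because IL6 and TNFSF10 were at their highest in the Day 113 wells. Capitals mark matches to the NF-kappaB consensus (CXCL1, CXCL3, CXCL5, CXCL6 and IL6), to the overlapping GAS motif TTCNNNGAA (CXCL5 and CXCL6), to the AP-1 motif TGANTCA (CXCL8), and to the interferon response motif (GAAA, then 2 bases of any kind, then GAAA), read on the other strand (TNFSF10).
CXCL1, chr4:73869193-73869332, plus strand: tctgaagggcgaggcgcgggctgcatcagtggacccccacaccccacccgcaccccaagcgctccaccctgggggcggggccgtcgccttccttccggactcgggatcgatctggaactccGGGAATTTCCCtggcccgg
CXCL3, chr4:74038750-74038889, minus strand: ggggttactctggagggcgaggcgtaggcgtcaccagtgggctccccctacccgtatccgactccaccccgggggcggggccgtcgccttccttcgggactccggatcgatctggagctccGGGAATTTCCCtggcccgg
CXCL5, chr4:73998738-73998877, minus strand: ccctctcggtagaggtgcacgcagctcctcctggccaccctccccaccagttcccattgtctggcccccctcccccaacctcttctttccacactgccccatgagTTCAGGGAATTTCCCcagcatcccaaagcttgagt
CXCL6, chr4:73836478-73836617, plus strand: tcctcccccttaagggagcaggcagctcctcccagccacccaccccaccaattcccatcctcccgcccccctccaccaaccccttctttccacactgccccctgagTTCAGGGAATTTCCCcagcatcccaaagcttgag
CXCL8, chr4:73740369-73740508, plus strand: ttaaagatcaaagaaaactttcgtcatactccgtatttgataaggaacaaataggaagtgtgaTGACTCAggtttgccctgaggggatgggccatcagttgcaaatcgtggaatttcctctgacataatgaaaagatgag
IL6, chr7:22727000-22727139, plus strand: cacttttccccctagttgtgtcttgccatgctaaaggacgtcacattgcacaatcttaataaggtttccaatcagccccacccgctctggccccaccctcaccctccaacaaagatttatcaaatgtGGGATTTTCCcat
TNFSF10, chr3:172523491-172523630, minus strand: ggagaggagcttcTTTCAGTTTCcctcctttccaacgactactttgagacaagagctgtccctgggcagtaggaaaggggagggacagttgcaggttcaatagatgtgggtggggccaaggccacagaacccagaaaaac

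RefSeq promoters of 300 bases (250 before and 50 after the start) were at hand for 25 of the 36 genes, and 4 motifs were searched on both strands. The NF-kappaB consensus lies in 8 of the 25 (CXCL1, CXCL3, CXCL5, CXCL6, IL23A, IL4R, IL6 and TNFSF13), against 11.3% of all 35116 promoters. AP-1 letters lie in 9 of the 25, against 7.71% of all promoters, among them CXCL8, IL11, CXCL14 and TNFSF15. The GAS motif was found in 3 (CXCL5, CXCL6 and IL33; 7.66% of all promoters) and the interferon response motif in 2 (TNFSF10 and TNFSF9; 3.57%). In CXCL5 and CXCL6 the GAS letters overlap the NF-kappaB letters. The genes with NF-kappaB letters did not share a time course in the values below: IL6 was higher at Day 113, IL4R and CXCL5 were lower, and CXCL3 was never called. A match describes letters in the window and not bound protein. Close matches are not counted: CXCL8 holds tggaatttcc, which departs from the NF-kappaB consensus in its first base only.

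From Day 30 to Day 60, 2 of the 36 genes rose (IL33 and CCL21) and 4 fell (CXCL5, IL32, TNFSF15 and IL4R), which is 16.7% called against 10.3% of all genes. Of all genes, 4.39% rose and 5.91% fell in this interval, beside 5.56% and 11.1% of the group. From Day 60 to Day 113, 10 rose (IL33, CCL21, IL32, CXCL8, CXCL1, CCL2, IL6, IL16, TNFSF10 and TNFSF15) and 2 fell (IL7 and CSF1), or 33.3% against 24% of all genes. The 10 that rose are 27.8% of the group, beside 12.9% of all genes, and the 2 that fell are 5.56%, beside 11.1%. Over the whole span, Day 113 against Day 30, 9 were higher and 7 lower, 44.4% against 34.5% of all genes. The 9 are 25% of the group beside 17.3% of all genes, and the 7 are 19.4% beside 17.2%. The median log2 fold change of the 36 genes was -0.41 in the first interval and 0.40 in the second, while that of all genes was -0.01 and 0.00.

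The first interval's count depended on Day 60 well 1, without which it gave 3 calls in place of 6. Over all 11 libraries left out in turn it gave 3 to 7, and DESeq2 gave 9 (2 higher and 7 lower), as did a fit of the Day 30 and Day 60 wells alone. The second interval gave 9 to 14 calls, with 9 reached without Day 60 well 1 and without Day 113 well 3, and the whole span gave 11 (without Day 30 well 3) to 16. Without Day 113 well 1, which stands highest in several results below, the second interval still gave 10 calls and the whole span 13. Wells of a day did not overlap between Day 30 and Day 60 for 10 genes (24.8% of all genes did not), for 13 between Day 60 and Day 113 (30.6% of all genes), and for 13 between Day 30 and Day 113 (35.1% of all genes). These shares of the group are near those of all genes.

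The genes differed in when they changed. Only IL33 and CCL21 were called higher in both intervals. IL32 fell and then rose above its Day 30 level, and TNFSF15 fell and rose again to a level below it. CXCL8, CCL2, IL6, IL16 and TNFSF10 were called in the second interval and over the whole span, and IL15 over the whole span alone. IL4R and CXCL5 had their fall in the first interval, IL7 and CSF1 in the second, and IL11 and LIF were called lower over the whole span only. CXCL1 was called in the second interval alone, and 19 genes were called in no pair of days. The second interval's change differed from the first's, by a test of that difference, for 7 genes, 19.4% against 9.34% of all genes. CXCL8, IL16, IL32, TNFSF10, TNFSF15 and IL4R had the more positive change in the second interval (4.97% of all genes did), and CSF1 the more negative one (4.38% of all genes). The CSF1 call (adjusted p 0.0441) was lost in 10 of 19 alternatives, with adjusted p up to 0.166, among them without any single Day 60 well. Both intervals share the Day 60 wells, and only 2 or 3 of the 7 were called when Day 60 well 3 or well 1 was left out.

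**Figure D1:**
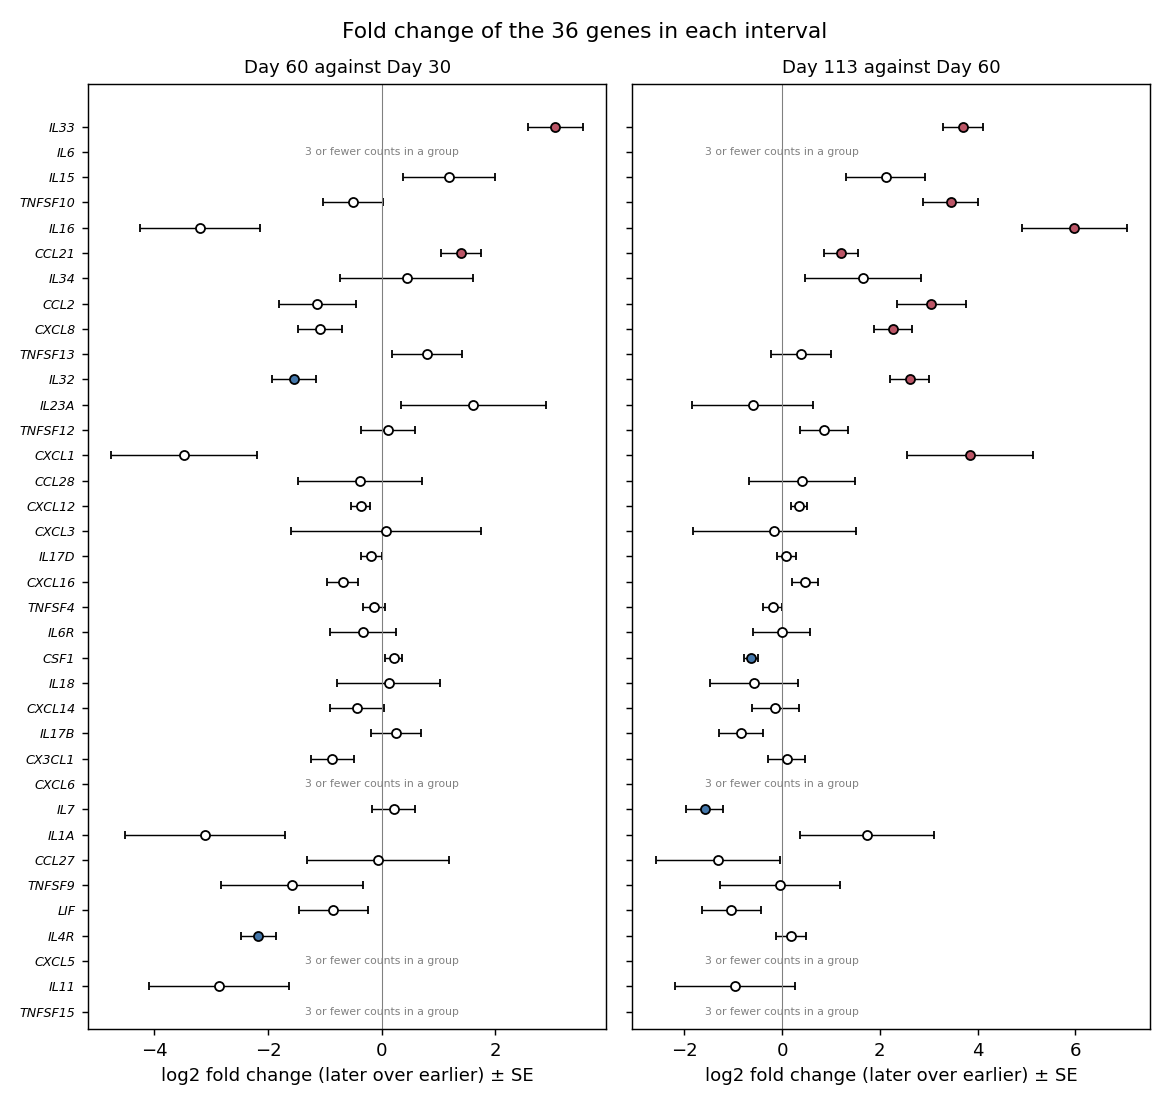
Log2 fold change with its standard error for each of the 36 genes, Day 60 over Day 30 on the left and Day 113 over Day 60 on the right. Red points were called higher, blue points lower and white points were not called. Genes with 3 or fewer counts in a group of wells carry no point. The 2 red points on the left are IL33 and CCL21, and both are red again on the right.

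Levels per kilobase of merged exon put CXCL12 first at every day, at 30.4 CPM per kb at Day 30, 23.5 at Day 60 and 29.8 at Day 113. It alone held between 45.2% and 59.4% of the group's counts in each library. At Day 30 the next levels per kilobase were CXCL14 (11.7 CPM per kb), IL4R (6.68), CSF1 (5.45) and IL17D (4.76). By Day 113 the order behind CXCL12 was CCL21 (19.2 CPM per kb), CXCL14 (7.84), IL33 (7.55), IL17D (4.47) and IL32 (4.36). The summed level of the 36 genes was 333 to 381 CPM in the Day 30 wells, 250 to 282 in the Day 60 wells and 269 to 434 in the Day 113 wells. Day 60 was thus the lowest group, and its range overlapped with that of Day 113 but not with that of Day 30. Exons of 14 of the 36 genes overlap another annotated gene, which for CXCL14, IL7, CCL27, IL16 and CXCL16 is itself in the table, and whether the counting used strand is not given in the sources used here.

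**Figure D2:**
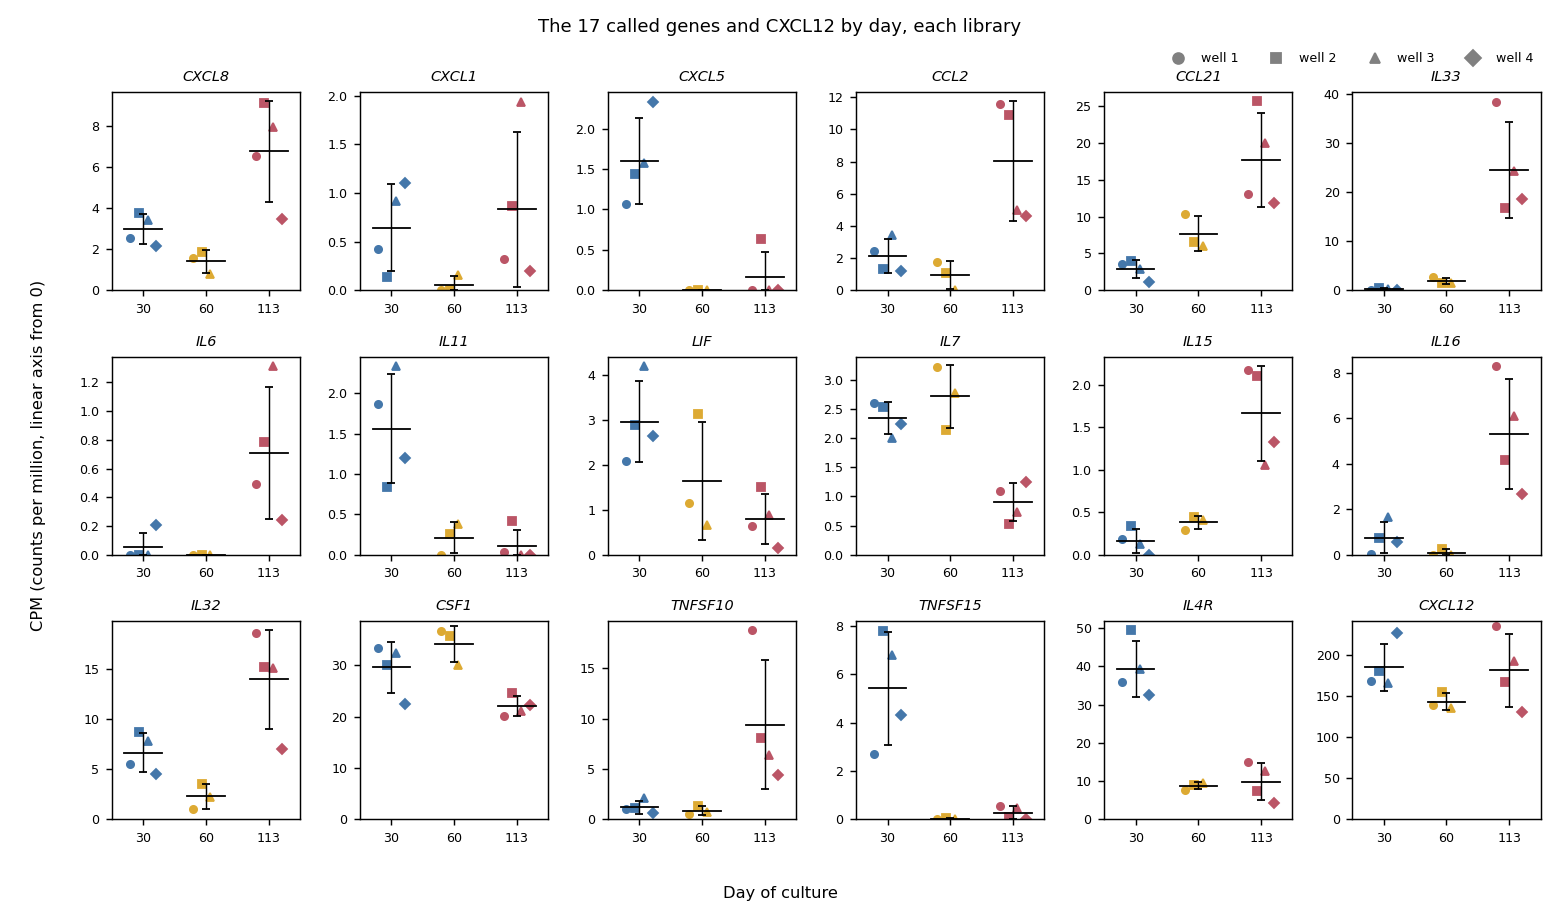
CPM of the 17 called genes and of CXCL12 in each library by day of culture, on linear axes from 0. Marker shapes give the well number, horizontal lines the mean of a day, and bars the SD, which stop at 0. IL33 and CCL21 step up at each day, TNFSF15, IL4R and CXCL5 are high in the Day 30 wells, and CXCL8, IL32 and IL16 are lowest at Day 60.

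Among the neutrophil chemokines, CXCL8 was lowest at Day 60 and rose to Day 113. CXCL8 (interleukin-8, chr4:73740569-73743716, plus strand) measured 2.56, 3.77, 3.42 and 2.16 CPM in the Day 30 wells, 1.60, 1.84 and 0.789 in the Day 60 wells and 6.55, 9.15, 7.96 and 3.45 in the Day 113 wells. The Day 60 wells lie below all others, while Day 113 well 4 lies within the Day 30 range. The rise from Day 60 to Day 113 was 4.82-fold (log2 fold change 2.27 ± 0.39, adjusted p 0.000717). The difference between Day 30 and Day 60 was not called (log2 fold change -1.08 ± 0.38, adjusted p 0.0887). DESeq2 called it (adjusted p 0.0499), as did the edgeR fit with the well number as a block (0.0233). Day 113 stood above Day 30 by 1.19 ± 0.34 on the log2 scale (adjusted p 0.0122), and the second change exceeded the first by 3.35 ± 0.72 on the log2 scale (adjusted p 0.00928). Without Day 60 well 3 this last value was 2.74, at an adjusted p of 0.057.

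CXCL5 (chr4:73995642-73998677, minus strand), an epithelial neutrophil attractant, was a gene of the Day 30 wells. Its levels there were 1.07, 1.43, 1.58 and 2.34 CPM, from 187 counts in all, and none of the 3 Day 60 wells held a count. Against a floor of 3 counts over the Day 60 group, CXCL5 fell at least 48.6-fold (adjusted p 0.018). At Day 113 it was found in well 2 alone, at 0.637 CPM, and the group stayed below Day 30 (log2 fold change -3.35 ± 1.22, adjusted p 0.0466). Without Day 113 well 2 no count remains at Day 113 and the fitted change was -8.60, which is no bound. The call at Day 113 was lost in 8 alternatives, with adjusted p up to 0.212, and the call at Day 60 was lost without any single Day 60 well, with adjusted p up to 0.0628.

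The related CXCL6 had 46 counts over the Day 30 wells and none at Day 60, at least 11.95-fold lower, but was not called (adjusted p 0.0618). CXCL1 (chr4:73869393-73871308, plus strand) was at 0.420, 0.133, 0.921 and 1.10 CPM at Day 30, 0, 0 and 0.158 at Day 60 and 0.318, 0.862, 1.94 and 0.201 at Day 113. All 5 counts at Day 60 are in well 3. Its rise in the second interval (log2 fold change 3.85 ± 1.29, adjusted p 0.0398) was lost in 9 alternatives, with adjusted p up to 0.129. The log2 change was 2.99 without Day 113 well 3 and 7.63 without Day 60 well 3, where no count remains at Day 60 and the value is no bound. CXCL3 stayed at or below a mean of 0.160 CPM at each day and was not called. So 4 of the 5 neutrophil chemokines in the table had a negative fold change in the first interval, and 1 of these passed the test.

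CXCL12 (stromal cell-derived factor 1, chr10:44370165-44385097, minus strand) led the group in level without a called change. Its wells read 167, 180.2, 165 and 226 CPM at Day 30, 139, 154 and 135 at Day 60 and 235, 166, 193 and 129.9 at Day 113. The Day 60 wells sit below all Day 30 wells, but the difference missed the threshold (log2 fold change -0.37 ± 0.16, adjusted p 0.178), and the Day 113 wells span both groups. In a fit of the Day 30 and Day 60 wells alone it passed, at an adjusted p of 0.0425, and without Day 113 well 4 the second interval passed, at 0.0273.

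CXCL14, a chemokine of epithelia and stroma, was at 23.9, 15.2, 26.1 and 27.1 CPM at Day 30, 12.4, 17.2 and 21.4 at Day 60 and 2.16, 14.5, 25.7 and 19.6 at Day 113. Day 113 well 1 is far below the other wells of its day, and no pair of days was called. CXCL16, the membrane-tethered ligand of CXCR6, was at 10.3, 12.7, 14.3 and 7.97 CPM, then 8.52, 6.96 and 5.68, then 8.52, 7.84, 15.4 and 7.30, with no call. CX3CL1 (fractalkine) had means of 4.24, 2.33 and 2.47 CPM and was not called either. All 4 chemokines outside the neutrophil cluster that are not CC chemokines were therefore without a call in the 3 pairs of days.

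Among the CC chemokines, CCL21 rose in both intervals. CCL21 (chr9:34709005-34710136, minus strand), which guides CCR7-bearing cells along lymphatic endothelium, was at 3.55, 4.04, 2.90 and 1.17 CPM at Day 30. It reached 10.4, 6.56 and 6.02 at Day 60 and 13.1, 25.7, 20.0 and 11.9 at Day 113. The 3 groups do not overlap, and the rise from Day 30 to Day 113 was 6.07-fold (log2 fold change 2.60 ± 0.34, adjusted p 2.68e-05). Each interval alone was called (log2 fold change 1.40 ± 0.35, adjusted p 0.018, then log2 fold change 1.21 ± 0.35, adjusted p 0.0203). The first was lost without Day 60 well 1 (adjusted p 0.0947), and the second without Day 60 well 2 or 3 or Day 113 well 2 (0.06 to 0.0916).

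CCL2 (chr17:34255285-34257203, plus strand), the monocyte attractant MCP-1, was low until Day 60 and high at Day 113. The wells read 2.44, 1.33, 3.46 and 1.20 CPM at Day 30, 1.79, 1.07 and 0.0315 at Day 60 and 11.6, 10.9, 4.99 and 4.61 at Day 113. Every Day 113 well was above every earlier well, and the rise over Day 60 was 8.31-fold (log2 fold change 3.06 ± 0.71, adjusted p 0.00551). The log2 change was 2.47 without Day 60 well 3 and 3.88 without Day 60 well 1, and it was called in both cases. Against Day 30 the difference was smaller (log2 fold change 1.92 ± 0.59, adjusted p 0.0193), and it missed the threshold without Day 30 well 2 (adjusted p 0.057) or well 4 (0.0565). The other CC chemokines, CCL27 and CCL28, were under 1 CPM at each day and were not called. Exons of CCL27 overlap those of IL11RA.

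IL33 had the largest fold change over the whole span among the 36 genes. IL-33 (chr9:6215149-6257983, plus strand) is an alarmin of the IL-1 family, stored in the nuclei of endothelial, epithelial and stromal cells and released when they are damaged. It was at 0.0764, 0.534, 0.165 and 0.103 CPM in the Day 30 wells, 2.62, 1.47 and 1.55 at Day 60 and 38.5, 16.8, 24.4 and 18.5 at Day 113. The groups do not overlap, and Day 113 well 1 is the highest. The rise was 8.29-fold in the first interval (log2 fold change 3.05 ± 0.48, adjusted p 0.000764), 13.0-fold in the second (log2 fold change 3.70 ± 0.41, adjusted p 1.99e-05) and 108-fold in all (log2 fold change 6.75 ± 0.45, adjusted p 3.5e-08). Leaving out single libraries kept the whole change between 6.45 and 7.68, and 6.45 was the value without Day 113 well 1. Without Day 30 well 2, which holds 16 of the Day 30 counts, the first change was 3.99 and the whole change 7.68. Limma-voom alone did not call the first interval (adjusted p 0.127). The other IL-1 family genes, IL1A and IL18, were not called. IL18 ranged from 0.0856 to 7.87 CPM within the Day 113 wells.

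The IL-6 family split. IL-6, the main inducer of the acute-phase response, appeared in the Day 113 wells while IL-11 and LIF declined. IL6 (chr7:22727200-22731998, plus strand) had 6 counts at Day 30, all in well 4, none at Day 60 and 90 at Day 113, where its wells read 0.491, 0.787, 1.31 and 0.241 CPM. Against the floor of 3 counts over the Day 60 group it was at least 22.3-fold higher at Day 113 (adjusted p 0.0182), and against Day 30 the change was 3.67 ± 1.35 on the log2 scale (adjusted p 0.0485). The latter missed the threshold without Day 30 well 1, 2 or 3 (adjusted p 0.101 to 0.109). It was also lost with upper-quartile scaling (0.0502) and with the well number as a block (0.0709). The former missed the threshold without Day 60 well 1 (0.0528).

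IL11 (chr19:55364382-55370463, minus strand), a gp130 cytokine made by stromal cells in response to TGF-beta, was at 1.87, 0.834, 2.34 and 1.20 CPM at Day 30. It measured 0, 0.258 and 0.379 at Day 60 and 0.0289, 0.412, 0 and 0 at Day 113. All Day 30 wells were above all later ones, and the fall over the whole span was called (log2 fold change -3.83 ± 1.17, adjusted p 0.0184). Of the 12 counts at Day 113, 11 are in well 2, and without that well the log2 change was -6.75. Over the libraries left out in turn it reached from -6.75 to -3.39. LIF (chr22:30240453-30246759, minus strand), which keeps stem cells undifferentiated in mouse culture and acts on heart muscle through LIFR, was at 2.10, 2.90, 4.21 and 2.65 CPM, then 1.15, 3.13 and 0.662, then 0.635, 1.5, 0.884 and 0.160. It was lower at Day 113 than at Day 30 (log2 fold change -1.89 ± 0.58, adjusted p 0.0181), with the Day 60 wells overlapping both. Both calls were lost without Day 30 well 3 (adjusted p 0.0535 for IL11 and 0.0585 for LIF).

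IL7 and IL15, a pair of lymphocyte growth factors that use the common gamma chain, moved in opposite directions. IL7 was at 2.60, 2.54, 2.01 and 2.23 CPM at Day 30, 3.22, 2.14 and 2.78 at Day 60 and 1.10, 0.525, 0.742 and 1.24 at Day 113. It fell in the second interval (log2 fold change -1.59 ± 0.38, adjusted p 0.00722), and no Day 113 well reached an earlier one. IL15 (chr4:141636583-141733987, plus strand) was at 0.191, 0.334, 0.132 and 0 CPM, then 0.287, 0.442 and 0.410, then 2.16, 2.10, 1.06 and 1.32, 9.89-fold higher at Day 113 than at Day 30 (log2 fold change 3.31 ± 0.77, adjusted p 0.00348), with a log2 change of 3.92 without Day 30 well 2. The difference from Day 60 alone was just short of the threshold (log2 fold change 2.12 ± 0.80, adjusted p 0.0672), although the groups do not overlap, and DESeq2 called it (adjusted p 0.0132).

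IL16 and IL32 were at their lowest at Day 60 and their highest at Day 113. IL16 (chr15:81182712-81314058, plus strand), whose protein is a precursor of a CD4-binding attractant, was at 0.0382, 0.734, 1.68 and 0.584 CPM at Day 30, 0, 0.258 and 0 at Day 60 and 8.28, 4.16, 6.10 and 2.69 at Day 113. The difference between Day 30 and Day 60, whose wells overlap, was not called (log2 fold change -3.19 ± 1.05, adjusted p 0.0679). It passed without Day 30 well 1 (0.0261) or Day 60 well 2 (0.0204). The Day 60 group held 7 counts, all in well 2, so its log2 fold change of 5.98 ± 1.08 to Day 113 (adjusted p 9.56e-04) rests on few counts. Without that well the Day 60 group holds no count, and the rise was still called (adjusted p 0.00102). Day 113 stood above Day 30 by 2.79 ± 0.75 on the log2 scale (adjusted p 0.00862), with no overlap, and by 3.53 without Day 30 well 3. The gene's exons overlap those of STARD5.

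IL32 (chr16:3065403-3069530, plus strand), a cytokine gene of primates and some other mammals that mice lack, was at 5.50, 8.74, 7.80 and 4.53 CPM at Day 30, 1.05, 3.57 and 2.27 at Day 60 and 18.6, 15.2, 15.1 and 7.02 at Day 113. It fell 2.90-fold to Day 60 (log2 fold change -1.54 ± 0.39, adjusted p 0.0181) and rose 6.12-fold to Day 113 (log2 fold change 2.61 ± 0.40, adjusted p 0.000283). The second change exceeded the first by 4.15 ± 0.74 on the log2 scale (adjusted p 0.00299). The fall was lost without Day 30 well 2, Day 60 well 1 or well 3, and with limma-voom (adjusted p 0.0586 to 0.0841). Day 113 was above Day 30 (log2 fold change 1.08 ± 0.33, adjusted p 0.0202), with Day 113 well 4 inside the Day 30 range, and that call was lost without Day 30 well 1 or 4 or Day 113 well 1 (0.0534 to 0.0627).

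CSF1 (chr1:109910506-109930992, plus strand), the growth factor of macrophages, was at 33.3, 30.1, 32.3 and 22.5 CPM at Day 30, 36.6, 35.7 and 30.1 at Day 60 and 20.1, 24.6, 21.0 and 22.2 at Day 113. It fell from Day 60 to Day 113 (log2 fold change -0.63 ± 0.14, adjusted p 0.00453), and the Day 113 wells lie below all Day 60 wells but not below Day 30 well 4. Against Day 30 the fall was smaller (log2 fold change -0.43 ± 0.13, adjusted p 0.0202), and it was lost without Day 30 well 1 or 3 or Day 113 well 3 (adjusted p 0.0508 to 0.0729). IL17D and TNFSF4 were not called: IL17D was at 13.5, 14.1, 19.7 and 16.1 CPM, then 15.9, 12.3 and 13.8, then 13.7, 18.3, 16.5 and 11. TNFSF4 (OX40 ligand) was at 7.29, 7.21, 11.5 and 9.76 CPM, then 7.82, 8.66 and 7.92, then 6.64, 7.72, 6.88 and 7.18. Of the remaining interleukins, IL17B had means between 1.85 and 3.28 CPM, and IL23A and IL34 were under 1 CPM at each day, all without a call.

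TNFSF10 and TNFSF15 were the TNF superfamily ligands that changed, and they changed in opposite ways over the whole span. TNFSF10 (TRAIL, chr3:172505508-172523430, minus strand), which triggers apoptosis through the death receptors TNFRSF10A and TNFRSF10B, was at 0.993, 1.13, 2.14 and 0.618 CPM at Day 30. It was at 0.511, 1.36 and 0.726 at Day 60 and 18.8, 8.10, 6.36 and 4.41 at Day 113. No earlier well reached a Day 113 well, and Day 113 well 1 was the highest. The rise from Day 60 was 10.9-fold (log2 fold change 3.45 ± 0.56, adjusted p 0.000427), and the log2 change was 2.86 without that well (adjusted p 7.46e-04). Day 113 exceeded Day 30 by 2.94 ± 0.48 on the log2 scale (adjusted p 0.00021), and by 2.36 without well 1.

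TNFSF15 (TL1A, chr9:114784635-114806039, minus strand), a T cell costimulator and inhibitor of vessel growth, was at 2.71, 7.81, 6.81 and 4.33 CPM at Day 30, from 638 counts. At Day 60 it had 2 counts, both in well 2. The Day 30 level was 248.7 times the Day 60 level after scaling (95% counting interval 68.6 to 2058, adjusted p 3.43e-04). At Day 113 the wells read 0.548, 0.112, 0.456 and 0 CPM, from 38 counts, which is 14.1 times the Day 60 level (3.65 to 121; adjusted p 0.039). That return was lost in 7 alternatives, with adjusted p up to 0.38, whereas Day 113 remained below Day 30 (log2 fold change -4.19 ± 0.71, adjusted p 0.000278) in every alternative that gave a value. TNFSF12 (TWEAK) had means of 1.69, 1.82 and 3.30 CPM and TNFSF13 (APRIL) of 0.726, 1.27 and 1.66 CPM. Neither was called, and both share exons with their annotated readthrough gene. TNFSF9 was under 1 CPM at each day.

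IL4R (chr16:27313756-27364778, plus strand), the receptor chain for IL-4 and IL-13, fell early and stayed low. It was at 35.9, 49.5, 39.4 and 32.6 CPM at Day 30, 7.76, 8.95 and 9.56 at Day 60 and 15.0, 7.54, 12.7 and 4.25 at Day 113. It fell 4.49-fold to Day 60 (log2 fold change -2.17 ± 0.31, adjusted p 0.000406) and stayed 3.97-fold below Day 30 at Day 113 (log2 fold change -1.99 ± 0.28, adjusted p 5.09e-05), with no overlap between Day 30 and later wells. IL6R, the ligand-binding chain for IL-6, was at means of 1.24, 0.996 and 0.991 CPM and was not called.

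The receptors of these ligands were looked at next, from lists that also hold genes outside the group. Of 10 chemokine receptors in the table, none was called in the first interval, and 3 rose and 1 fell in the second. These are 30% and 10% of the list, beside 12.9% and 11.1% of all genes, and the list median was -0.02 on the log2 scale beside 0.00 for all genes. CXCR4, the signalling receptor of CXCL12, was at 5.19, 4.94, 4.80 and 3.30 CPM at Day 30, 3.35, 4.64 and 4.13 at Day 60 and 76.6, 34.8, 35.7 and 23.3 at Day 113, a rise from Day 60 of 3.40 ± 0.34 on the log2 scale (adjusted p 1.03e-05). ACKR3, the scavenging receptor of CXCL12, went from 13.0, 23.3 and 17.4 CPM at Day 60 to 124, 69.6, 78.4 and 45.0 at Day 113 (log2 fold change 2.15 ± 0.30, adjusted p 0.00014). CXCL12 itself was not called, as given above. Both receptors were highest in Day 113 well 1, and without that well the log2 changes were 2.95 and 1.85.

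CXCR2, the receptor for CXCL1, CXCL5 and CXCL8, was at 0.989, 0.663 and 0.189 CPM at Day 60 and 8.63, 5.51, 6.33 and 7.22 at Day 113 (log2 fold change 3.49 ± 0.71, adjusted p 0.00234). CXCR6, the receptor of CXCL16, is given for its ligand although it lies under the 5 CPM used to name receptors. It was at 3.93, 2.87 and 5.11 CPM at Day 60 and 1.07, 0.112, 0.685 and 0.883 at Day 113 (log2 fold change -2.51 ± 0.49, adjusted p 0.00171). CCR7, the receptor of CCL21, had means of 0.0836, 0.447 and 0.410 CPM, and IL1RL1, the IL-33 receptor, of 0.356, 0.196 and 1.70 CPM. Neither was called in any pair of days, nor was CSF1R, the receptor of CSF1 and IL-34.

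**Figure D3:**
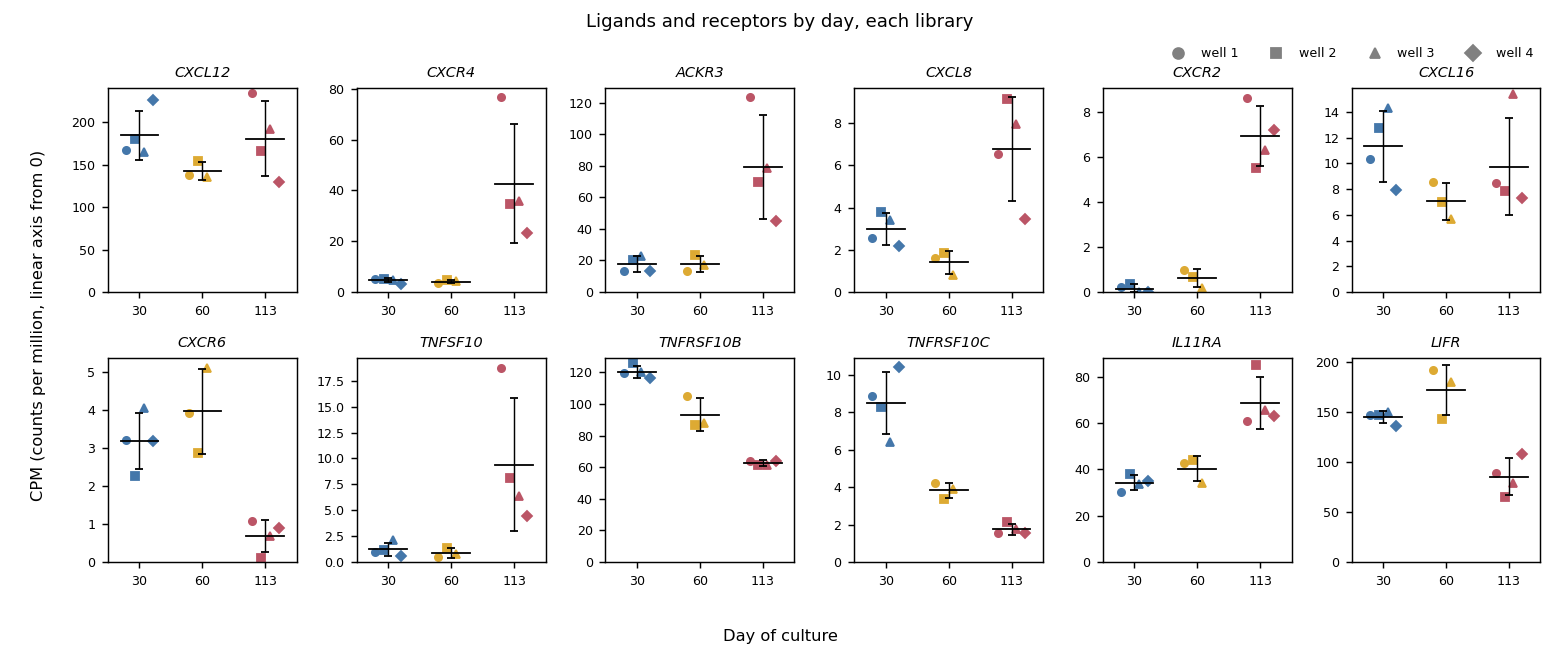
CPM in each library by day of culture for ligands and receptors, with the mean of each day and its SD. CXCR4, ACKR3 and CXCR2 are high in all 4 Day 113 wells, CXCL12 overlaps between Day 60 and Day 113, and TNFRSF10B and TNFRSF10C step down while TNFSF10 is high at Day 113.

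Interleukin and colony-stimulating factor receptors numbered 29 in the table, IL4R and IL6R among them. In the first interval 5 fell (17.2%, beside 5.91% of all genes) and none rose. In the second 6 rose (20.7%, beside 12.9%) and 3 fell (10.3%, beside 11.1%), with a list median log2 fold change of 0.52. Over the whole span 8 were higher and 8 lower, 27.6% each, beside 17.3% and 17.2% of all genes. IL1R1, the receptor of IL-1, had means of 13.3, 5.73 and 26.6 CPM and fell before it rose (log2 fold change -1.22 ± 0.30, adjusted p 0.0159, then log2 fold change 2.21 ± 0.31, adjusted p 0.000133). Its first change was lost without any single Day 60 well (adjusted p 0.0517 to 0.072), without Day 30 well 2 (0.0634) and with limma-voom (0.0784). LIFR was at 192, 143 and 180.2 CPM at Day 60 and 89.5, 65.3, 78.9 and 108 at Day 113, a fall (log2 fold change -1.01 ± 0.14, adjusted p 0.00014). IL11RA was higher at Day 113 than at Day 30 (log2 fold change 1.01 ± 0.12, adjusted p 1.59e-05), whereas IL11 was lower. OSMR, the oncostatin M receptor, rose in the second interval (log2 fold change 1.90 ± 0.46, adjusted p 0.0069), and the shared chain IL6ST (gp130) was not called, with means of 327, 304 and 391 CPM.

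TNF receptors numbered 22 in the table. In the first interval 7 fell (31.8%, beside 5.91% of all genes) and none rose. In the second 8 rose (36.4%, beside 12.9%) and 4 fell (18.2%, beside 11.1%), with a list median of 0.51. Over the whole span 6 were higher (27.3%, beside 17.3%) and 5 lower (22.7%, beside 17.2%). TNFRSF10B (DR5), the death receptor for TNFSF10, was at 119, 126, 120.0 and 116 CPM at Day 30, 105, 86.7 and 87.7 at Day 60 and 64.0, 61.1, 61.1 and 64.0 at Day 113 (log2 fold change -0.94 ± 0.09, adjusted p 7.24e-07 over the whole span). The decoy receptor TNFRSF10C fell as well (log2 fold change -2.29 ± 0.24, adjusted p 2.9e-06), while the decoy TNFRSF11B (osteoprotegerin), which also binds TNFSF10, rose (log2 fold change 2.49 ± 0.25, adjusted p 2.2e-06). TNFRSF21 (DR6) fell from 40.6 ± 8.96 to 6.57 ± 1.33 CPM (log2 fold change -2.62 ± 0.18, adjusted p 3.97e-08). TNFRSF25, the receptor of TNFSF15, was not called, at means of 3.6, 3.67 and 4.95 CPM.

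Genes of the pathways downstream were read against the same shares of all genes, which were 4.39% risen and 5.91% fallen in the first interval and 12.9% and 11.1% in the second. Of 22 NF-kappaB pathway genes and targets, 2 rose (9.09%) and 3 fell (13.6%) in the first interval, and 8 rose (36.4%) and 3 fell (13.6%) in the second (list median 0.30). NFKB1 rose (log2 fold change 0.92 ± 0.13, adjusted p 0.000179), and VCAM1, an adhesion molecule for leukocytes, fell to Day 60 (log2 fold change -1.61 ± 0.16, adjusted p 1.71e-05) and rose to Day 113 (log2 fold change 0.97 ± 0.16, adjusted p 0.000424) without regaining its Day 30 level. Of 20 JAK-STAT genes, 1 rose and 1 fell in the first interval (5% each), and 3 rose (15%) and 5 fell (25%) in the second (list median 0.06). SOCS3, a feedback inhibitor of gp130 signalling, was lower at Day 113 than at Day 30 (log2 fold change -1.10 ± 0.21, adjusted p 0.000615). Of 13 interferon-stimulated genes, 11 rose (84.6%) and none fell in the second interval, with a list median of 2.44 on the log2 scale. IFI6 went from 20.1 ± 4.09 CPM at Day 60 to 87.5 ± 56.9 at Day 113 (log2 fold change 2.13 ± 0.41, adjusted p 0.0017).

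Related ligands outside the symbol rule numbered 8 in the table. In the first interval 1 rose and 1 fell (12.5% each, beside 4.39% and 5.91% of all genes). In the second 1 rose (12.5%, beside 12.9%) and none fell. KITLG (stem cell factor) fell to Day 60 (log2 fold change -0.70 ± 0.18, adjusted p 0.0234) and rose to Day 113 (log2 fold change 1.56 ± 0.19, adjusted p 4.26e-05). Its fall was lost without any single Day 60 well (adjusted p 0.0551 to 0.103). It was also lost without Day 30 well 2 (0.0906) or 3 (0.0501), and with limma-voom (0.0651). TSLP, an epithelial cytokine related to IL-7, was higher at Day 113 than at Day 30 (log2 fold change 1.28 ± 0.31, adjusted p 0.00441).

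Markers of other cell types moved with these results. Of all genes, 4.39% rose and 5.91% fell in the first interval, and 12.9% rose and 11.1% fell in the second. Cardiomyocyte markers summed to 29955 to 41339 CPM at Day 30, 36952 to 41814 at Day 60 and 31690 to 35284 at Day 113. Of these 8 markers none was called in the first interval, and 1 rose and 1 fell in the second (12.5% each). TNNT2, the cardiac troponin T gene that defines the labelled cell type, had means of 2748, 2993 and 4334 CPM. All 9 endothelial markers rose in the second interval, and their sum was 80.7 to 112 CPM at Day 30, 49.5 to 80.9 at Day 60 and 933, 428, 456 and 245 in Day 113 wells 1 to 4. Within Day 113, well 1 had the highest endothelial sum and the highest IL33, TNFSF10, TNFSF15, IL16, IL32, CCL2, CXCR4 and ACKR3. Well 4 had the lowest sum and the lowest TNFSF10, TNFSF15, IL16, CXCL8, IL32, CCL2, CCL21, CXCL1, IL6, CXCR4 and ACKR3. Not every gene that rose followed the whole order: CCL21 and CXCL8 were highest in well 2, and CXCL1 and IL6 in well 3. IL33 was lowest in well 2. Of the 9 fibroblast markers, 1 rose and 3 fell in the first interval, and 6 rose (66.7%) and 1 fell (11.1%) in the second. Their sum was 3353 to 7708 CPM at Day 30, 2071 to 3571 at Day 60 and 13049, 6762, 11275 and 5436 in Day 113 wells 1 to 4. The defining fibroblast gene PDGFRA fell, from a mean of 96.5 CPM at Day 60 to 32.3 at Day 113. Of 5 proliferation markers, 2 rose in the first interval and all 5 fell in the second, with sums of 337 to 422 CPM at Day 30, 528 to 773 at Day 60 and 201 to 397 at Day 113. Of 5 smooth muscle and pericyte markers in the table, 1 fell in the first interval (20%) and 2 rose in the second (40%). Their sum was 774 to 986 CPM at Day 30, 728 to 885 at Day 60 and 1416, 1158, 1184 and 905 in Day 113 wells 1 to 4. The Day 113 wells thus stood in the same order in the endothelial, fibroblast and smooth muscle sums. Of 7 epicardial and mesothelial markers, 1 rose in the second interval (14.3%, beside 12.9% of all genes) and none fell.

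Epithelial and endoderm markers fell in the first interval, in which TNFSF15, IL4R, CXCL5 and IL32 fell. Of 10 epithelial markers, 9 fell in the first interval (90%, beside 5.91% of all genes). Their sum was 2204 to 3234 CPM at Day 30 and 1297 to 1483 at Day 60. EPCAM went from a mean of 59.4 CPM to 1.93. Endoderm and hepatocyte markers summed to 444 to 1269 CPM at Day 30 and 48.6 to 56.7 at Day 60, with 8 of 10 fallen (80%). AFP went from 499.8 to 5.95 CPM. Only 4 of 11 myeloid markers have a row in the table, summing to 1.56 to 5.07 CPM per library, and the leukocyte gene PTPRC and all 6 lymphocyte markers have none. The part of the endothelial, fibroblast, proliferation, smooth muscle, epithelial and endoderm markers in the changes of the 36 genes was not tested.

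**Figure D4:**
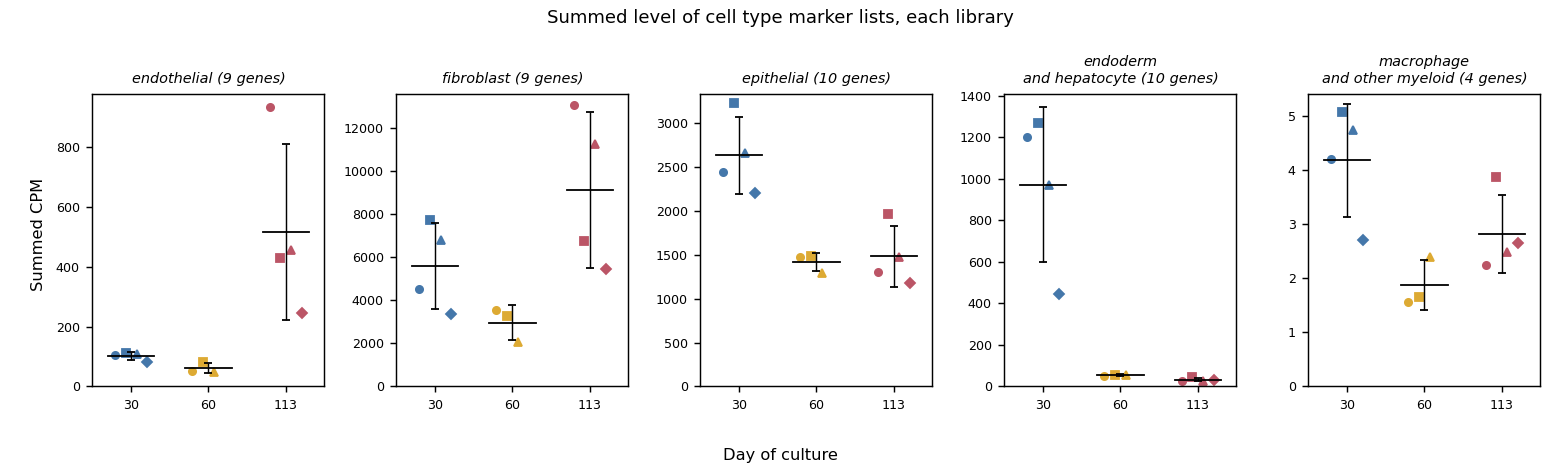
Summed CPM of the marker lists in each library by day of culture, with the mean of each day and its SD. Marker shapes give the well number as in the other plots. The endothelial sum is highest in Day 113 well 1 (933 CPM) and lowest among the Day 113 wells in well 4 (245 CPM). So is the fibroblast sum (13049 and 5436 CPM), and the endoderm sum is high at Day 30 alone.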

How the data were processed

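RNA of 11 wells was measured by poly(A) RNA-seq with paired-end reads of 150 bases. The authors deposited raw counts per gene; per the submitters' processing notes, STAR 2.5.3a, featureCounts 2.0.3 and hg38 were used, and whether replicates or strand were treated in any further way is not given in the sources used here. The authors also deposited a TPM table, which was not used for comparisons. The ratio of count to TPM, which should follow gene length, did not correlate between libraries (median Spearman rho -0.00166 over 55 library pairs and 12309 genes). A rank correlation cannot tell lengths that differ between libraries from a ratio that is nearly the same for all genes.

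Counts were tested with edgeR 4.0.16 in R 4.3.3 (TMM scaling, filterByExpr with a minimum count of 10, which removed 0 of 19990 genes, glmQLFit and glmQLFTest with day as factor over all 11 libraries). The common biological coefficient of variation was 0.282. Adjustment was by Benjamini-Hochberg over all genes, with a threshold of 0.05. Standard errors were taken from the size of the log2 fold change and its F statistic (change over root F). Folds against a group without counts use 3 counts over that group, and ratios with 1 to 3 counts carry exact 95% intervals for counting error only. Library totals were 24071375 to 34546715 counts and TMM factors 0.9662 to 1.036. Alternatives were RLE and upper-quartile scaling, robust dispersions, DESeq2 1.42.0, limma-voom (limma 3.58.1), other low-count filters, a threshold of 0.01, only the days compared, a replicate block, and leaving out each library. The script was tested on simulated data.

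The genes, families, context and marker lists were chosen with earlier results of these data known. Genes given with every well are those called in a pair of days with a mean of at least 1 CPM in their highest day, or with a mean of at least 5 CPM. Receptors and pathway genes are named from called genes with a mean of at least 5 CPM. Receptors of named ligands below that level, and the genes under 1 CPM that were called or share the promoter letters, were added after their values were seen. Promoters and coordinates are RefSeq's, GRCh38.p14, and all 36 genes had coordinates. Exon lengths are GENCODE's merged exons.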

Additional observations from a re-analysis of the deposited data

Results flagged for a closer look

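In 4 of 44 groups of 4 wells, a single well stood apart from the others by Dixon's test, which chance alone gives in about 1 of 20 groups of values on a continuous scale. For CXCL5 and IL6 the other 3 wells hold no count, which fixes the ratio at its highest value, so that rate does not apply to them. CXCL5 was at 0.637 CPM in Day 113 well 2 and at 0 in the other 3. IL11 was at 0.412 CPM in the same well, against 0 to 0.0289 in the others. CXCL16 was at 15.4 CPM in Day 113 well 3, against 7.30 to 8.52. IL6 was at 0.206 CPM in Day 30 well 4 and at 0 in the other 3.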

How the results depend on the processing

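Genes called in a pair of days, or with a mean of at least 5 CPM, were also tallied one by one under other settings. The rest of the 36 genes were not in this tally, and the interval difference entered only where it was called. Of 1433 such values, 1336 kept their direction and side of the threshold, and 73 lost a call (61 of them when a library was left out). A call was gained by 13, and 11 changed sign, none of which had been called. The first interval's 6 calls became 3 without Day 60 well 1 and 3 at an adjusted p under 0.01, but 9 (2 higher, 7 lower) with DESeq2 and with the Day 30 and Day 60 libraries alone. With each library left out in turn they were 3 to 7. The second interval's 12 calls became 8 under 0.01 and 14 with DESeq2, and were 9 to 14 over libraries left out. The whole span's 16 became 8 under 0.01, and were 11 to 16 over libraries left out. The 7 called interval differences became 4 with limma-voom, 3 under 0.01, 3 without Day 60 well 1, 2 without well 3 and 10 (9 higher, 1 lower) with DESeq2, and were 2 to 9 over libraries left out. The lower counts under 0.01 come from the stricter threshold itself, and for the other settings the cause was not tested. Without single libraries these uncalled log2 fold changes changed sign: TNFSF4 in the first interval (range -0.221 to 0.00804, without Day 30 well 3). In the second interval they were CXCL14 (-0.505 to 0.229, without Day 60 well 3 or Day 113 well 1), IL17D (-0.0242 to 0.209, without Day 113 well 2) and IL4R (-0.0899 to 0.426, without Day 113 well 1). Over the whole span they were CXCL12 (-0.18 to 0.101, without Day 30 well 4, Day 113 well 2 or well 4), IL17D (-0.203 to 0.034, without Day 30 well 3 or Day 113 well 4) and CXCL1 (-0.482 to 0.755, without Day 113 well 3). Same-numbered wells correlated at 0.0348 to 0.139 over 10 pairs, only 2 above 0.1, and differently numbered wells at -0.108 to 0.122 over 30 pairs. The correlations are weak, but 18 of 20 comparisons were best with the same number. These values do not settle whether the numbers pair the wells. With the replicate block the counts were 7, 12, 15 and 7. CXCL8 was then called lower in the first interval (-1.30, adjusted p 0.0233), IL6 lost its call over the whole span (0.0709), and CSF1 lost that for the interval difference (0.078). Values that could not be given were IL6 in the first interval without Day 30 well 4 and CXCL5 in the second without Day 113 well 2, where no counts remained, genes removed by a mean of 10 counts, and adjusted p-values that DESeq2 left out. Genes at a few counts per well, such as IL6, CXCL1 and TNFSF15 at Day 60, are limited by depth.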
